A study of Mus musculus with 18 samples.

Results

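The comparison described here sets neurons of the embryonic mouse cortex against progenitors labelled as differentiating. The neuron fraction also held RNA of neurons that reach the lateral cortex from elsewhere, described below. Both fractions came from the lateral cortex of C57BL/6 mouse embryos at embryonic day 14.5. Neurons were the green, Tubb3 positive cells (Neuron) and differentiating progenitors the red, Btg2 positive cells (DP). Members were taken by title and column name: 12 of the 18 samples, which form 6 of the 9 libraries, 3 of each fraction, since each library was sequenced in a single-read and a paired-end run. All embryos, for every fraction, carried the same pair of reporters at Btg2 and Tubb3; the genotype label writes Btg2GFP/Tubb3GFP, while titles of the Btg2 fractions say RFP, and colours follow the titles. The other 3 libraries hold cells without the red signal, labelled proliferating progenitors (PP), and serve here for side-by-side values and for the estimate of spread. Each library pooled more than 3 embryos of different litters, with meninges and ganglionic eminences removed before sorting, so a library is a pool and not an animal. The series design calls them biological replicates. The Btg2 reporter marks cells that have made or kept its protein, not a lineage, and the sources used here do not say whether green cells were gated to be free of red signal.

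Cortical neurons arise from dividing cells at the ventricle, radial glia, either directly or through intermediate progenitors that divide once more away from the ventricle. A newborn neuron leaves the cell cycle, loses its attachment to the ventricle, migrates outward along radial glial fibres and extends an axon before it forms synapses. Btg2 is an antiproliferative gene of differentiating progenitors, and Tubb3 is the tubulin by which young neurons are usually recognised.

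Each level is a CPM value, the reads of a gene per scaled library total, computed from the counts the authors deposited, and values after ± are standard deviations over 3 libraries. DP values are given in the order of libraries L223, L356 and L394 and Neuron values in the order L224, L357 and L395; these numbers are names and carry no order. Folds and log2 differences are Neuron against DP and come from edgeR's quasi-likelihood test, and a gene is said to have risen, fallen or changed where its Benjamini-Hochberg adjusted p was under 0.05. Total counts were 39836073 to 50535080 per DP library and 42840710 to 55935128 per Neuron library, and mitochondrial genes took 1.14% to 1.42% of a library. Gene positions are on mm9, the build of the deposited files. In bulk RNA, fewer cells of a type and less RNA per cell cannot be told apart.

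The labels were checked on the sorted genes and on neuronal and progenitor markers. The 2 reporter genes define the gates, so their levels describe the sort and are no result. Btg2 (chr1:135971747-135975697) stood at 658, 850.2 and 1156 CPM in DP and 158, 154.6 and 194 in Neuron, and Tubb3 (chr8:125935324-125945915) at 533, 695 and 515 and 2474, 2588 and 2089.9. Neither gene overlapped between the fractions. Dcx, the microtubule protein of migrating neurons, stood at 609, 885 and 747 CPM in DP and 2794, 2622 and 2651 in Neuron. Eomes, the T-box factor of intermediate progenitors, stood at 950.0, 1294 and 1242 and 114, 53.4 and 77.6, and was 14.2-fold lower in Neuron. Rbfox3 (chr11:118351074-118772911), the splicing factor that the antibody NeuN recognises in mature neurons, did not separate the fractions. Its DP libraries held 121, 165 and 177 CPM and its Neuron libraries 182, 166.3 and 193, and the groups overlapped (log2 0.22 ± 0.18, SE; adjusted p = 0.285, edgeR). Rbfox3 stood at 7.597 ± 2.33 CPM in PP. Grik3 (chr4:125167944-125391417), a kainate receptor subunit, stood at 3.32, 3.55 and 2.92 CPM in DP and 459, 511 and 461 in Neuron, far apart and without overlap. Among the markers given here, Rbfox3 was the one whose fractions overlapped.

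2 libraries stood apart. Neuron L224 held more cell cycle RNA than the other Neuron libraries: Mki67, the proliferation antigen, stood at 66.3, 21.6 and 19.4 CPM in Neuron and 1517, 1003 and 1073 in DP. The summed level of 40 G2 and M phase genes was 217 to 447 CPM over the Neuron libraries, highest in L224, against 5725 to 8242 CPM over the DP libraries. DP L223 held more globin and choroid plexus RNA: Hbb-b1, an adult beta globin, stood at 51.2, 7.90 and 8.63 CPM in DP and 6.09, 6.44 and 2.99 in Neuron, and Ttr, the transthyretin of choroid plexus, at 52.8, 7.44 and 4.97 and 0.679, 0.630 and 0.592. The same library was the highest DP library in Dlx1, a factor of ventral cells (83.5, 51.0 and 14.5 CPM in DP). Without L223 the comparison called 5984 features higher and 6055 lower, without L224 5875 and 5959, and without L222, L223 and L224 together 5793 and 5775.

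Over the whole transcriptome, 18627 features were tested and 67.3% changed. Higher in Neuron were 6161 features (33.1%) and lower 6378 (34.2%), so about 1 feature in 3 is called in each direction, and every count of members below is to be read against those shares. At least 2-fold were 2910 of the higher and 3336 of the lower features, and at least 8-fold 770 and 1107. Of protein-coding genes, 5417 of 14718 rose and 5096 fell. Annotated long non-coding RNAs leaned the other way, with 320 of 1472 higher and 556 lower and a median log2 difference of -0.33, against a median of -0.041 over all features. The libraries of the groups did not overlap in 72.4% of features. Scaling by library totals alone moved the split of calls from 49.1% higher and 50.9% lower to 35.7% and 64.3% (4695 and 8470 features), since it lowers the median of all features by 0.22 on the log2 scale. Differences here are relative to the scaled median. In the authors' deposited table, 12050 of 12520 features called here carried the same call and 0 the opposite one.

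**Figure D1:**
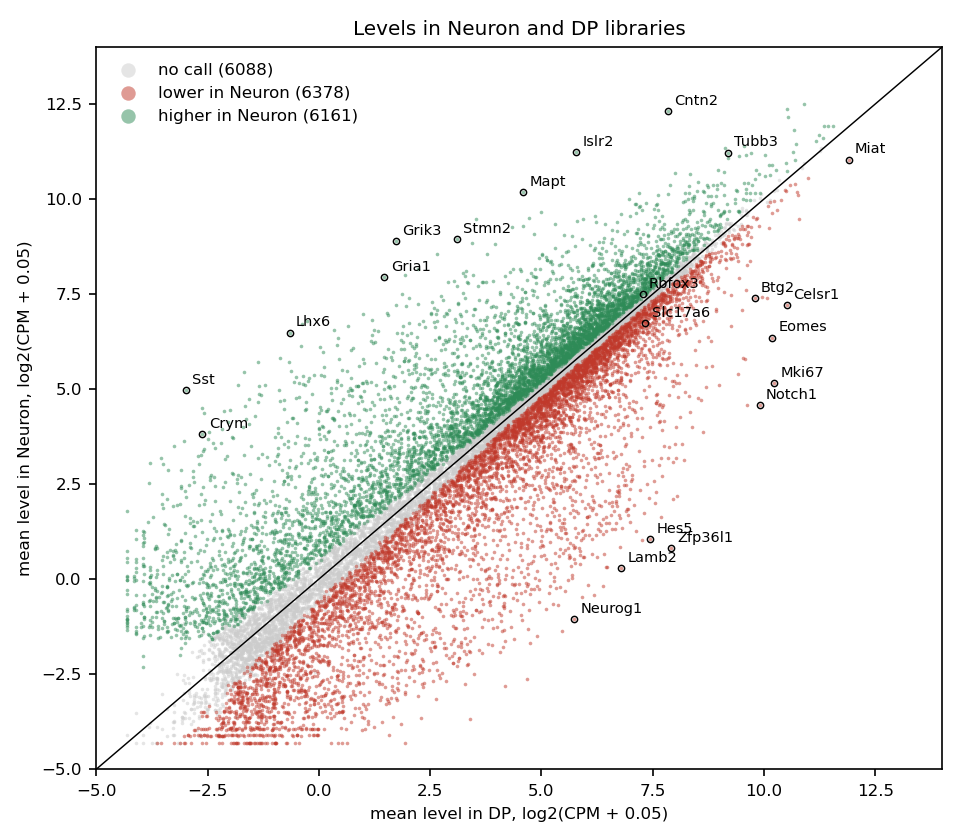
Mean level in DP (x axis) against mean level in Neuron (y axis), both as log2(CPM + 0.05), for the 18627 features tested; colours give the call of edgeR's quasi-likelihood test and the line marks equal levels. Most of the labelled genes lie far from the line, while Rbfox3 lies close to it.

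In absolute level the largest rises were in the cytoskeleton and surface of the growing axon. Cntn2, the axonal adhesion molecule TAG-1, led with 174, 258 and 253 CPM in DP and 5368, 5039.8 and 4934 in Neuron (22.4-fold, log2 4.48 ± 0.45, SE; adjusted p = 3.20e-06, edgeR). The lowest Neuron library lay far above the highest DP library. Mtap1b, a microtubule-associated protein of growing axons, rose from 1923 ± 275 to 5833 ± 497 CPM, the tubulin Tuba1a from 1469.6 ± 85.6 to 5325 ± 462 and the tubulin Tubb2b from 1491 ± 138 to 4596 ± 191. Islr2, an immunoglobulin-repeat membrane protein of axons, had little RNA in the progenitors, with 45.3, 59.9 and 59.6 CPM in DP and 2568, 2371 and 2289 in Neuron (43.8-fold). Dpysl3, a collapsin response mediator, rose 4.69-fold, the transcription factor Nfib 2.204-fold and the dendritic microtubule protein Mtap2 3.66-fold.

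The largest falls in level were of another kind. Miat, the nuclear long non-coding RNA also called Gomafu, fell from 3837 ± 667 to 2099.6 ± 96.4 CPM. Celsr1, a planar polarity cadherin, stood at 1509, 1459.7 and 1428 CPM in DP and 181, 125 and 135 in Neuron (9.98-fold lower). The ubiquitin ligase Nedd4 fell 2.48-fold, from 1777 ± 132 to 715 ± 41.4 CPM, the intermediate filament Vim 5.80-fold and the cyclin Ccnd2 6.38-fold. In Celsr1, Vim and Ccnd2 the highest Neuron library was L224, and none of these 5 genes overlapped DP.

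By fold, the genes ranked 11 to 30 in each direction, all of them calls that reached 10 CPM in a group without overlapping libraries, came from a few recognisable classes. Among the higher ones were receptors and their regulators. Mc4r, the melanocortin receptor, stood at 0.212, 0.291 and 0.193 CPM in DP and 28.5, 40.4 and 34.3 in Neuron. The glycine receptor subunit Glra2 rose 115-fold, the GABA-B receptor subunit Gabbr2 92.2-fold, the AMPA receptor subunit Gria1 89.9-fold and the neurotrophin receptor Ngfr 93.1-fold. Regulators of G protein signalling were represented by Rgs4 (0.193 ± 0.0593 to 17.6 ± 4.33 CPM) and Rgs6 (0.170 ± 0.0262 to 15.3 ± 1.16). Crym, a thyroid hormone binding protein of deep-layer cortical neurons, stood at 0.165, 0.0775 and 0.0965 CPM in DP and 12.01, 17.3 and 12.7 in Neuron. Sncb, beta-synuclein, rose 118-fold, the potassium channel partner Dpp10 107-fold, the matrix protein Tnr 99.1-fold, the neurexin ligand Nxph1 83.1-fold and the adaptor Sla 141-fold. The remaining ones were Ccbe1, Eef1a2, Galnt9, Tmem130, Fam135b, Tmem63c and Gm15440.

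Among the strongest falls of the same ranks were genes of the progenitor surface and its signalling. Lamb2, a laminin chain, fell 94.6-fold, the integrin Itga5 66.9-fold, the matrix signalling protein Cyr61 72.2-fold and the chondroitin sulfotransferase Chst3 71.6-fold. Wwtr1, the Hippo pathway coactivator TAZ, stood at 110.4, 81.0 and 72.9 CPM in DP and 1.01, 1.32 and 1.26 in Neuron. The transcription factors Rfx4 and Sox3 fell 65.5- and 62.9-fold, the endothelin receptor Ednrb 59.4-fold and Acsbg1, an acyl-CoA synthetase, 84.2-fold. Among the 30 strongest falls, RNAs that overlap or adjoin a coding gene of that ranking include Gm17591 and Gm20421: Gm17591 lies at chr12:81209021-81213987 against Zfp36l1 at chr12:81208747-81214000, and Gm20421 at chr4:154334879-154335787 against Hes5 at chr4:154335032-154336480. Reads of such neighbours cannot be told apart, since the sources used here do not say whether counting used the strand.

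**Figure D2:**
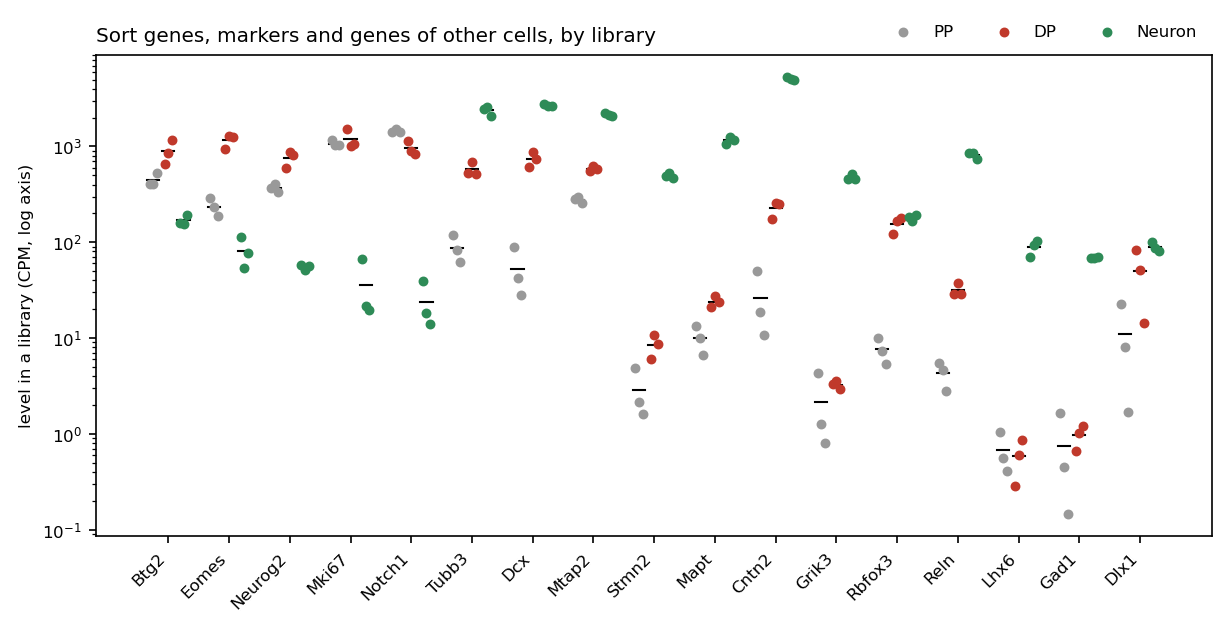
CPM per library on a log axis for 17 genes in PP, DP and Neuron; each point is 1 library and each bar the mean of 3. Progenitor genes fall and most neuronal genes rise from DP to Neuron, while the libraries of Rbfox3 overlap between those 2 fractions.

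Cell cycle genes were lower in Neuron without exception among those listed. All 42 S phase genes and all 40 G2 and M phase genes fell, and these counts were the same under every alternative setting run, with L224 left out among them. The median log2 difference was -2.81 for S phase and -4.78 for G2 and M phase, against -0.041 over all features. S phase differences ran from -5.52 (Tk1, thymidine kinase) to -0.44 (Orc6, a subunit of the origin recognition complex). The G2 and M phase range was -5.35 (Aurkb, a mitotic kinase) to -2.35 (Cdc25b, a phosphatase that opens mitosis). Dnmt1, the maintenance DNA methyltransferase, was among the S phase genes that fell least, from 393.8 ± 63.2 to 221 ± 15.4 CPM (1.79-fold), whereas Mcm3, a subunit of the replicative helicase, fell from 171 ± 33.1 to 4.31 ± 2.50 (39.6-fold). Top2a, the topoisomerase of dividing cells, stood at 1000.1, 665 and 709 CPM in DP and 44.7, 14.7 and 12.3 in Neuron, and Mki67 (values above) was 33.5-fold lower. In both genes the Neuron value of L224 was about 3 times that of the other Neuron libraries and far under every DP library.

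The promoter windows of these 2 groups were searched for letters of cell cycle elements, printed here for 6 genes that were picked for clear matches after their values were seen. E2F factors act at the G1 to S transition, and their sites were searched as TTTCCCGC, TTTCGCGC, TTTGCCGC and TTTGGCGC. The cell cycle homology region, CHR, is TTTGAA and often stands downstream of CCAAT boxes in genes of G2 and M phase. Windows ran from 250 bases before to 50 bases after the start of a gene, in RefSeq on GRCm38.p6, a different build from that of the counts, and both strands were searched. E2F letters can overlap one another where a site is palindromic. Each line gives the bases that end at the start of the gene, 5′ to 3′ on the strand of the gene, with the matched letters in capitals. The first 3 genes act in S phase: Mcm6 is a helicase subunit (chr1:128359706-128359835, minus strand), Orc1 the largest origin recognition subunit (chr4:108579407-108579453, plus strand) and Hells a chromatin remodeller of replicating cells (chr19:38930908-38930989, plus strand). Capitals there mark E2F letters alone, and the first run of capitals in Mcm6 is 2 overlapping matches; Mcm6 also holds CCAAT letters, left in lower case.
Mcm6: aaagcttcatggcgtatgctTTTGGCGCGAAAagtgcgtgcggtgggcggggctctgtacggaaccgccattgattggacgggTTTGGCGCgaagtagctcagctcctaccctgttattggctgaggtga
Orc1: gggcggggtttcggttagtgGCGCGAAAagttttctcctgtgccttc
Hells: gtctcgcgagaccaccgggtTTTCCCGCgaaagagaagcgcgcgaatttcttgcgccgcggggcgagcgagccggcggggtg

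The next 3 act in mitosis, and capitals mark CHR and CCAAT letters on either strand, not E2F letters. Cdk1 is the mitotic kinase (chr10:69352913-69353140, minus strand), Cdc20 the activator of the anaphase-promoting complex (chr4:118437344-118437416, minus strand) and Kif11 the spindle motor (chr19:37376317-37376381, plus strand).
Cdk1: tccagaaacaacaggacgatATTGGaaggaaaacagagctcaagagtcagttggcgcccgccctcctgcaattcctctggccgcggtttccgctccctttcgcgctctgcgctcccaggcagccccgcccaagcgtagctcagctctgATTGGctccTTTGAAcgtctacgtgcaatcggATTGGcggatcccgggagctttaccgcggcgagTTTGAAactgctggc
Cdc20: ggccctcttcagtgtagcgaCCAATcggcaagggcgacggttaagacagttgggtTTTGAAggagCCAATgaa
Kif11: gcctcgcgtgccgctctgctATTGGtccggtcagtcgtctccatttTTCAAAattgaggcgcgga

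Of the tested genes, 10775 of 18627 had a window, and a gene counted where any of its windows matched. E2F letters stood in 16 of 36 S phase genes with a window (44.4%), in 1 of 34 G2 and M phase genes (2.9%) and in 4.5% of all. That 1 gene is Cdk1, whose line above holds TTTCGCGC in lower case. CHR letters stood in 26 of 34 G2 and M phase genes (76.5%), in 5 of 36 S phase genes (13.9%) and in 13.9% of all. CCAAT stood in 79.4%, 55.6% and 42.7%. A high share of CCAAT was not limited to cell cycle genes. It stood in 15 of 18 cholesterol and lipid genes (83.3%), a list with a median log2 of 0.12. Among the 660 features with a window that fell at least 8-fold, 5.6% had E2F and 20.2% CHR letters. Those shares were much nearer to all genes than S phase genes were for E2F and G2 and M phase genes for CHR. The levels of the genes shown were 212 to 24.0 CPM (DP to Neuron means) for Mcm6, 9.27 to 0.460 for Orc1, 87.7 to 8.06 for Hells, 95.7 to 2.45 for Cdk1, 132 to 6.21 for Cdc20 and 295 to 8.72 for Kif11. All 6 fell without overlap between DP and Neuron libraries. So did all 42 and all 40 members of the 2 lists they were picked from, so this was fixed by the choice. Of all features, 72.4% did not overlap. A match is a description of letters and was not tested as a binding site.

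**Figure D3:**
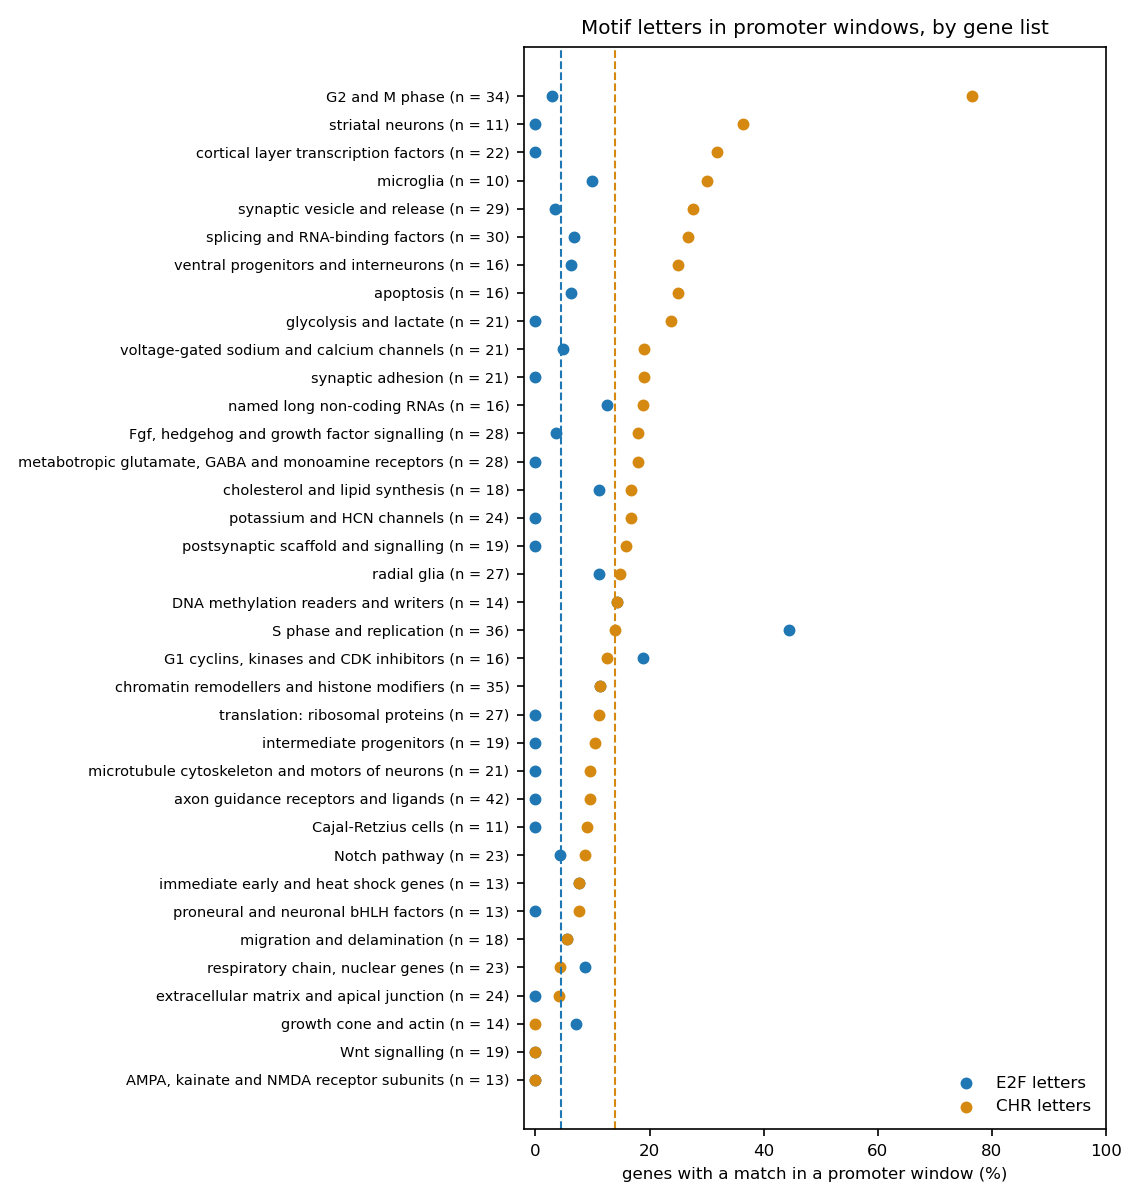
Percent of genes whose window from 250 bases before to 50 after the start holds E2F or CHR letters, for lists with at least 10 genes with a window; the dashed lines are the shares of all tested genes. S phase genes stand out for E2F (44.4%) and G2 and M phase genes for CHR (76.5%).

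G1 regulators were more mixed. Of 24 cyclins, kinases and inhibitors, 14 fell, 3 rose and 7 did not pass, with a median log2 of -0.54. Ccnd1, cyclin D1, fell 25.7-fold from 95.7 ± 0.688 to 3.73 ± 0.456 CPM, and Cdkn2c, a CDK inhibitor of dividing progenitors, fell 41.9-fold from 44.2, 33.7 and 38.1 to 1.33, 0.691 and 0.747. Cdkn1c, the inhibitor p57, did not pass, at 107, 111 and 105 CPM in DP and 126, 97.9 and 114 in Neuron. The 3 that rose were the atypical kinase Cdk5 and its activators Cdk5r1 and Cdk5r2, which act in migrating neurons and not in the cycle. Cdk5 rose from 36.4 ± 2.96 to 70.2 ± 1.23 CPM, Cdk5r1 from 139 ± 22.7 to 787 ± 19.6 and Cdk5r2 from 1.48 ± 0.354 to 16.1 ± 1.37.

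Radial glial genes fell almost throughout. Of 30, 28 fell and 1 rose, and Pdgfa, a growth factor, did not pass (median log2 -3.60). Pax6, the cortical progenitor factor, fell from 367 ± 29.1 to 27.3 ± 6.24 CPM, the intermediate filament Nes from 735 ± 249.7 to 56.4 ± 4.44, and Aldoc, a glycolytic enzyme of glia, 66.98-fold. The exception was Ptprz1, a receptor phosphatase, which rose from 311.5, 245 and 207 to 471, 579 and 505 CPM without overlap. Summed over the list, levels were 7199.7 to 9749.5 CPM in DP, 1385 to 1547 in Neuron and 14550.0 to 15929 in PP.

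Intermediate progenitor genes did not all fall alike. Of 25, 21 fell, 2 rose and 2 did not pass, with a median log2 of -1.75; Btg2 is one of the members and is fixed by the sort. Neurog2, the proneural factor, stood at 597, 865 and 806 CPM in DP and 57.3, 51.7 and 56.3 in Neuron (13.7-fold lower), and Chd7, a chromatin remodeller, fell 6.03-fold. Others kept much of their level: Rcor2, a corepressor, went from 687 ± 97.5 to 499 ± 26.2 CPM, Insm1, a zinc finger factor of delaminating progenitors, from 337 ± 50.3 to 195 ± 13.3, and Dll1, a Notch ligand, from 406 ± 22.3 to 210.1 ± 31.9. Trp73, a p53 family factor that Cajal-Retzius cells also make, rose from 14.02 ± 0.468 to 48.5 ± 2.37, and Plxna2, a semaphorin receptor, from 1164 ± 125 to 1906 ± 196. Nhlh1 did not pass (123 ± 16.7 and 114 ± 16.9 CPM).

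Helix-loop-helix factors changed in both directions. Of 19 tested, 12 fell, 5 rose and 2 did not pass (median log2 -1.37). Neurod4, a factor of late neural precursors, fell sharply, at 27.3, 43.9 and 36.8 CPM in DP and 1.22, 0.406 and 0.541 in Neuron (50.2-fold lower). Neurod1 did not pass, at 152 ± 29.97 and 182 ± 22.1 CPM. Among its relatives, 3 rose: Neurod2 from 337 ± 56.0 to 996 ± 12.6 CPM, Neurod6 from 344 ± 71.1 to 1038 ± 36.5 and Bhlhe22, a factor of postmitotic projection neurons, 9.94-fold from 28.9 ± 6.63. Id2, an inhibitor of such factors, rose from 50.4 ± 5.45 to 244 ± 12.4 CPM while Id1 and Id3 fell. In PP, the levels were 6.73 ± 3.12 (Neurod1), 2.30 ± 0.651 (Neurod4) and 23.6 ± 14.3 (Neurod6) CPM. PP and Neuron are each compared with the same DP libraries, so their differences from DP are not independent.

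Notch signalling, by which a cell that expresses a ligand keeps its neighbours from differentiating, was lower in neurons at the receptor and the target. Of 30 pathway genes, 22 fell, 5 rose and 3 did not pass (median log2 -1.11). The receptor Notch1 stood at 1141, 889.9 and 844 CPM in DP and 39.3, 18.3 and 14.1 in Neuron (40.0-fold lower, adjusted p = 4.86e-08, edgeR), Notch2 fell 14.7-fold and Notch3, which pericytes also make, 47.1-fold. In Notch1, too, L224 was the highest Neuron library. The target Hes5 stood at 274, 123 and 124 and 2.46, 1.91 and 1.67 CPM, and Nrarp, a feedback target, fell 14.3-fold. The ligand Dll1 fell less than the receptors, 1.93-fold. Among those that rose were the ligand Jag2 (6.51 ± 0.792 to 37.5 ± 4.00 CPM), the ligand-like membrane proteins Dner (12.03 ± 1.19 to 161 ± 4.25) and Dlk2 (0.801 ± 0.0497 to 12.8 ± 1.63) and the ubiquitin ligase Dtx1 (35.1 ± 8.83 to 229 ± 19.3). Jag1 fell from 15.2 ± 1.82 to 12.1 ± 1.15 CPM, and its call was lost without L223, L224 or L395.

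Wnt genes fell in most places. Of 32, 23 fell, 5 rose and 4 did not pass (median log2 -1.27). Among ligands, Wnt8b of the medial cortex and hem fell 73.3-fold, while Wnt7b rose from 105, 135 and 126 to 592, 562 and 562 CPM. Among receptors, Fzd8 fell 9.52-fold and Fzd3, which guides axons, did not pass (178 ± 27.0 and 159 ± 14.6 CPM). Fzd3 was called lower with library totals (log2 -0.39) and with the replicate block (-0.16). The nuclear partners Tcf7l1 and Tcf7l2 fell 24.8- and 13.3-fold, and Axin2, a direct target of the pathway, 2.80-fold. Ctnnb1, beta-catenin, fell only 1.59-fold from 1748 ± 93.6 CPM. Of the destruction complex, Apc rose from 311.9 ± 13.4 to 1029 ± 55.7 CPM and Gsk3b from 422 ± 29.1 to 503 ± 22.1; the Gsk3b call was lost with library totals and without L394 or L357. Rspo3, a Wnt agonist that the cortical hem also makes, rose from 18.3 ± 1.85 to 56.7 ± 5.37 CPM.

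Growth factor pathways were divided between 15 higher and 19 lower of 39 (median log2 -0.76). The receptors Fgfr3 and Fgfr2 fell 9.48- and 2.82-fold and Etv5, a target of Fgf signalling, 5.97-fold, whereas Dusp6, another target, rose from 9.0 ± 3.05 to 39.5 ± 7.81 CPM. The receptor Fgfr1 also rose, a call lost with library totals (log2 0.084). In the hedgehog pathway the transducer Smo fell 5.97-fold and the coreceptors Gas1 and Boc 59.3- and 4.06-fold. Ptch1, receptor and target, rose from 25.4 ± 2.13 to 32.1 ± 4.32 CPM, a call lost without L356, L394, L224 or L357 and with library totals. Receptors of neurotrophins and neuregulin rose: Ntrk2 from 53.1 ± 8.78 to 131 ± 7.64 CPM and Erbb4, which migrating interneurons also make, 40.4-fold from 2.31 ± 0.0455. Bdnf stood near 0.380 ± 0.0399 CPM in DP and 0.769 ± 0.298 in Neuron, and its call was lost without any one of L223, L356, L394, L357 or L395.

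**Figure D4:**
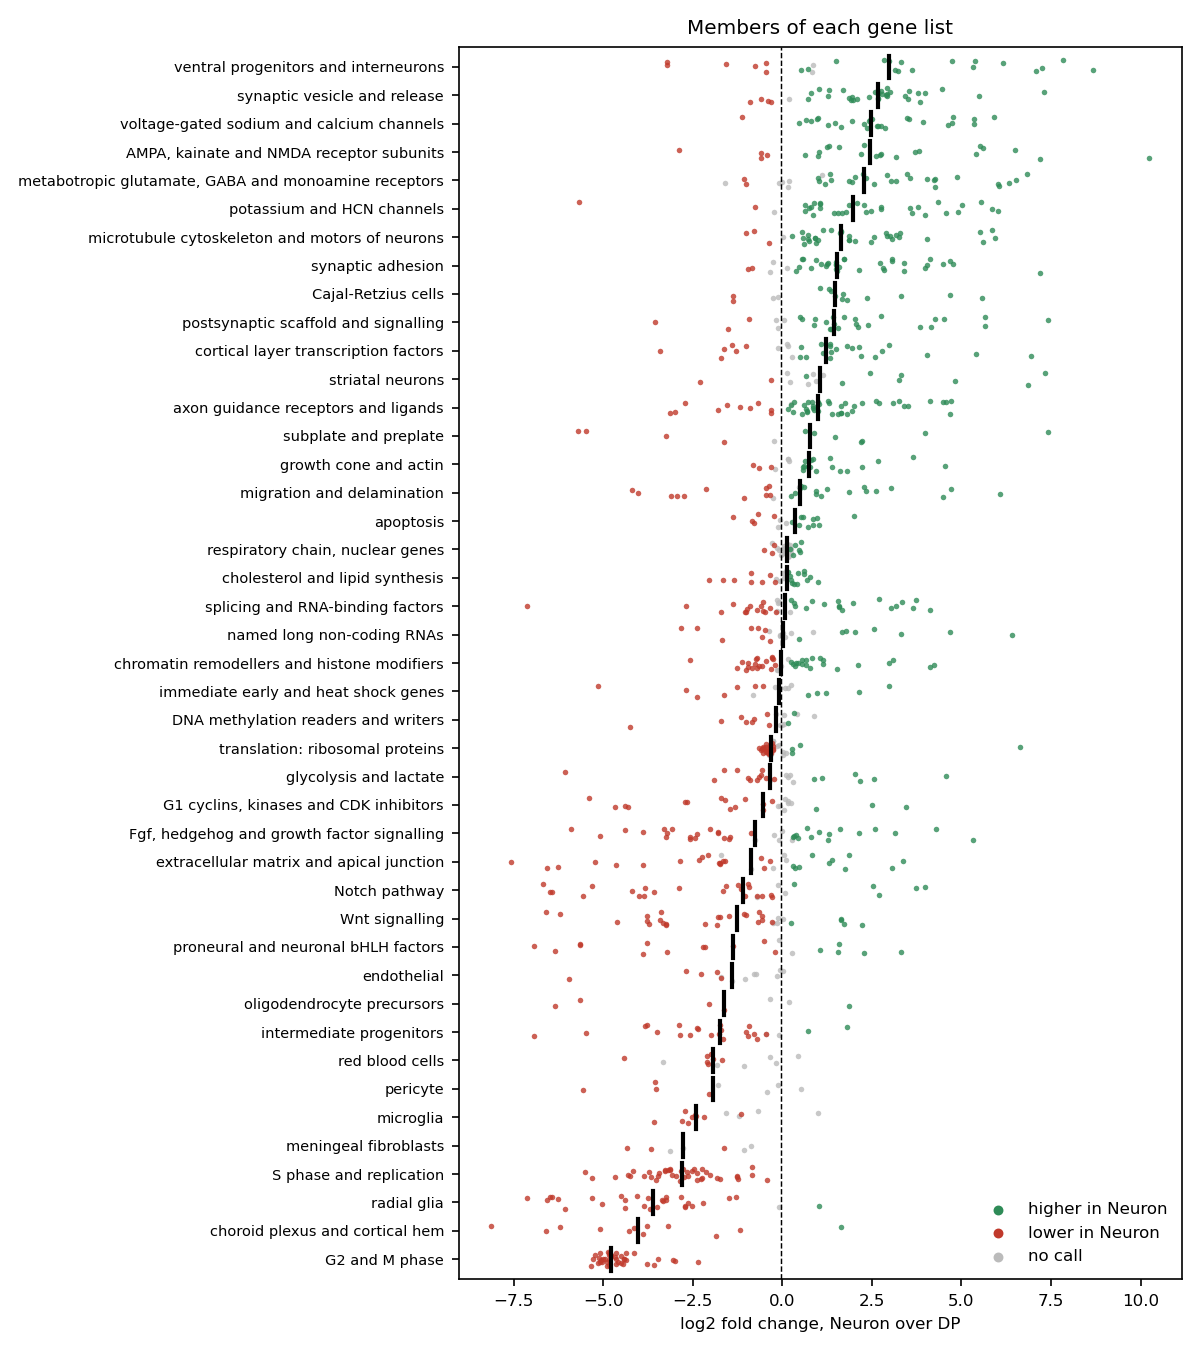
Log2 difference of Neuron against DP for every tested member of each list, coloured by call; black bars are list medians and the dashed line the median of all 18627 features (-0.041). Cell cycle, choroid plexus and hem, and radial glia lists lie at the low end. The list of ventral progenitors and interneurons has the highest median (2.98), followed by synaptic vesicle, channel and receptor lists.

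Transcription factors of cortical layers rose in most cases. Of 30, 20 rose, 6 fell and 4 did not pass (median log2 1.23). The deep-layer factors Tbr1, Bcl11b and Sox5 all rose. Tbr1 held 115, 173 and 151 CPM in DP and 905, 851 and 889.9 in Neuron, Bcl11b 127, 162 and 150.5 and 1208, 1160.5 and 1089, and Sox5 125, 150.4 and 138 and 912, 953 and 964. No library overlapped in any of the 3. Fezf2, a factor of subcerebral neurons, rose 2.13-fold, and Myt1l, a factor that keeps neuronal identity, 16.4-fold from 39.3 ± 12.4 to 646 ± 58.1 CPM. The steepest after Crym was Mef2c, at 4.07, 3.78 and 4.15 CPM in DP and 148, 184 and 171 in Neuron. Upper-layer and progenitor-linked factors went the other way or apart: Cux1 fell from 191 ± 27.7 to 94.2 ± 11.2 CPM while Cux2 rose from 119 ± 17.1 to 298 ± 19.5, and the POU factors Pou3f2 and Pou3f3 fell 3.27- and 2.45-fold. Nr4a2, often taken as a subplate marker, fell from 56.6 ± 7.43 to 18.2 ± 0.661 CPM. Of 12 subplate and preplate genes 7 rose and 4 fell; Lpar1, a lysophosphatidic acid receptor that radial glia also make, fell 52.3-fold.

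Genes of the neuronal microtubule rose nearly throughout. Of 38, 34 rose, 3 fell and 1, the kinesin Kif5b, did not pass (median log2 1.63). Size differed by member. Mapt, the axonal protein tau, stood at 20.8, 27.1 and 23.8 CPM in DP and 1069, 1262 and 1166 in Neuron (48.7-fold), Stmn2, a growth cone tubulin regulator, at 6.05, 10.8 and 8.59 and 492, 524 and 471 (58.1-fold), and Ina, the early neurofilament alpha-internexin, at 10.9, 11.95 and 11.7 and 679, 735 and 704 (61.3-fold). In all 3 the lowest Neuron library lay far above the highest DP library. Tubb2a rose from 46.7 ± 2.07 to 391 ± 38.2 CPM while Tubb4b fell from 165.6 ± 30.8 to 94.7 ± 8.15. The motors Kif5a and Kif5c rose 9.03- and 2.00-fold and Kif21a fell from 463 ± 15.6 to 229.9 ± 18.2 CPM. Tppp3, which promotes tubulin polymerisation, fell from 6.58 ± 0.844 to 5.08 ± 0.139, a call lost without any one of L223, L394, L224 or L395. Per kilobase of the deposited gene length, Tuba1a was the highest of the tubulins named here in Neuron (3233 CPM per kilobase), followed by Tubb2b (2391), Tubb3 (1276) and Tubb2a (247).

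In the growth cone and actin list 17 of 24 rose, 3 fell and 4 did not pass (median log2 0.74). Gap43, the growth cone membrane protein, rose from 21.4, 24.7 and 22.1 to 285, 302 and 269.5 CPM and Crmp1, a semaphorin effector, 6.36-fold. Marcks, an actin-binding kinase substrate, fell from 794 ± 25.6 to 454 ± 20.3 CPM, and the collapsin mediator Dpysl4 from 143 ± 5.08 to 91.0 ± 6.50, against the rise of its relative Dpysl3.

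Axon guidance genes rose in most cases. Of 51 genes, 40 rose, 10 fell and 1 did not pass (median log2 0.99). The slit receptor Robo1 stood at 41.4, 44.6 and 32.9 CPM in DP and 479, 424 and 350.0 in Neuron, Plxnd1, a semaphorin receptor, at 9.91, 8.52 and 10.5 and 295, 210.4 and 250.04, and the adhesion molecules L1cam and Chl1 rose 6.07- and 25.8-fold. Dcc, the netrin receptor, was already high in DP and rose from 201 ± 32.3 to 410.1 ± 70.8 CPM. The 10 that fell include the secreted cues Slit2 (110.4 ± 13.3 to 37.5 ± 1.77 CPM), Ntn1 (17.2 ± 3.84 to 2.157 ± 1.25) and Ntn4 (31.6 ± 3.29 to 4.84 ± 0.412), the receptors Epha4 and Plxnb1, the ligand Efnb1, which fell 2.27-fold, and Sema5a, which fell 8.77-fold.

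Genes of the synapse were higher in Neuron, at a stage when few cortical synapses have formed. Of 38 synaptic adhesion genes 33 rose and 2 fell (median log2 1.51), of 38 synaptic vesicle and release genes 33 rose and 4 fell (2.66), and of 29 postsynaptic genes 23 rose and 3 fell (1.45; 5 fell with library totals). Nlgn1, a postsynaptic adhesion molecule, rose from 22.9 ± 1.48 to 52.9 ± 2.44 CPM. Among release genes, Syt1, the calcium sensor of fast release, rose 45.2-fold from 3.27 ± 0.219 to 148 ± 6.51 CPM, Snap25 7.59-fold, Sv2b 14.4-fold and the active zone scaffold Bsn from 78.1 ± 10.6 to 465 ± 39.5 CPM. The vesicle SNARE Vamp2 rose from 89.4 ± 7.50 to 221 ± 6.47 while Vamp1 fell from 13.4 ± 2.12 to 7.10 ± 1.06, and Syt11 fell from 668 ± 47.2 to 506 ± 24.9. Of the postsynaptic genes, Shank1, a scaffold, rose from 28.3, 26.0 and 31.5 to 526, 564 and 542 CPM, Camk2b, a calcium-dependent kinase, 50.5-fold and Camk4 50.1-fold, while Camk2d fell from 19.1 ± 1.02 to 6.61 ± 0.580. Arc, a synaptic immediate early gene, fell from 19.3 ± 4.10 to 1.66 ± 0.314 CPM.

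The 2 vesicular glutamate transporters moved in opposite directions. Slc17a6 (VGLUT2) stood at 123, 190.4 and 171 CPM in DP and 125, 88.1 and 105 in Neuron and was lower at the threshold, with L223 within the range of the Neuron libraries, a call lost without any one of L356, L394, L357 or L395 and with the size factors or the test of DESeq2. Slc17a7 (VGLUT1) stood at 21.8, 25.7 and 27.2 and 167.6, 167.9 and 174 and rose 6.81-fold. To compare 2 genes, CPM were divided by gene length; such shares are given for 14 pairs of related genes, chosen after their values were seen, and are a description. Of the per-length CPM of both transporters, Slc17a7 held 18.7% ± 2.1 (SD) in DP and 70.3% ± 3.7 in Neuron.

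Ionotropic glutamate receptor subunits and their partners rose in 20 of 24 cases and fell in 4 (median log2 2.45). Gria1 stood at 1.81, 2.87 and 3.50 CPM in DP and 216, 265 and 256 in Neuron and Gria2, the subunit that keeps calcium out, at 200.1, 238 and 255 and 1108, 1144 and 1127. Gria2 was thus already abundant in DP and Gria1 low there. Of the NMDA receptor, Grin1 rose 48.7-fold from 0.806 ± 0.240 to 39.1 ± 3.93 CPM and Grin2b 42.6-fold from 2.87 ± 0.666 to 123 ± 16.7. The kainate subunit Grik2 went against Grik3, from 133 ± 11.1 to 88.9 ± 11.5 CPM. Cacng3, an AMPA receptor partner, had 0 counts in the 3 DP libraries and 448 in the Neuron libraries, at least 154-fold higher against a floor of 3 counts over the DP group. Cacng5 also fell, and so did Grik4, whose call was lost without L356, L394, L224 or L395. The Grik4 call was also lost with the size factors or the test of DESeq2, with no filter and in paired-end runs alone. Leaving out L222, L223 and L224 together ended it too.

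GABA, glycine, metabotropic and monoamine receptors rose in 26 of 34 cases and fell in 2 (median log2 2.28). Gabrb1 fell from 3.85 ± 0.444 to 1.84 ± 0.637 CPM. Cnr1, the cannabinoid receptor of projection neurons and some interneurons, rose from 55.5, 62.8 and 63.6 to 708, 678 and 759.8 CPM. The chloride exporter Slc12a5, KCC2, rose from 7.91 ± 0.999 to 15.7 ± 1.95, and the chloride importer Slc12a2, NKCC1, did not pass (73.8 ± 8.29 and 73.8 ± 3.44, log2 0.00, and -0.22 with library totals). KCC2 held 8.91% ± 1.3 of the per-length CPM of the pair in DP and 16.2% ± 1.1 in Neuron, so the importer stayed the more abundant RNA in both.

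Voltage-gated channels were among the most uniform groups. All but 1 of 28 sodium and calcium channel genes rose (27, median log2 2.49), and the exception was Cacnb2, an auxiliary subunit, from 9.19 ± 1.73 to 4.19 ± 0.331 CPM. Both counts were the same under every alternative setting run. Cacna1e, an R-type calcium channel, stood at 5.53, 5.79 and 7.33 CPM in DP and 333, 412 and 385 in Neuron (60.6-fold), the sodium channel partner Scn3b at 4.45, 6.76 and 6.10 and 147, 169.5 and 152, and Scn2a1 rose 26.7-fold. Scn3a, the sodium channel of embryonic neurons, was already at 28.2 ± 7.40 CPM in DP and rose to 179 ± 4.09. Per kilobase of gene length in Neuron, Scn3a stood at 14.2 and Scn2a1 at 5.27 CPM. Of 34 potassium and HCN channel genes 31 rose, 2 fell and 1 did not pass (median log2 1.97). Kcna1 rose 65.5-fold, while Kcnj10, the glial inward rectifier, fell from 63.5, 46.1 and 34.9 to 1.19, 0.935 and 0.670.

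Some strongly higher genes carry, in their promoter windows, letters of RE1, the element bound by the repressor REST that holds neuronal genes off in other cells. 2 stretches of RE1 were searched, TTCAGCACC and GGACAGCGC, on both strands. Half-site letters stood in 15 of 451 features with a window that rose at least 8-fold (3.3%), in 3 of 29 synaptic vesicle genes (10.3%) and in 1.3% of all. Wnt genes, most of which fell, had them in 2 of 19 (10.5%) and DNA methylation genes in 1 of 14 (7.1%), so such shares were not limited to lists that rose, and the counts are small. 2 examples, chosen after the matches were seen, are Gad2, the synaptic GABA-making enzyme (chr2:22622152-22622326, plus strand), and Dner (chr1:84696222-84696391, minus strand). Both positions are on GRCm38.p6, and each line has its half-site letters in capitals.
Gad2: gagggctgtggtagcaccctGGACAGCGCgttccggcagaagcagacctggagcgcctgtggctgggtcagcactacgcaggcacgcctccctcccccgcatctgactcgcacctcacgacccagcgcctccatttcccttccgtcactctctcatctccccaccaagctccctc
Dner: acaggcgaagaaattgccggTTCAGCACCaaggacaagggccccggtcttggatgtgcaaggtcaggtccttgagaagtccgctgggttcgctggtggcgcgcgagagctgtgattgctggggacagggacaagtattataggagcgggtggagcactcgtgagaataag

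Rest itself fell from 84.2, 61.9 and 77.8 to 37.8, 46.9 and 46.3 CPM (1.71-fold), and its corepressor partners Rcor1 and Rcor2 fell 1.21- and 1.38-fold, the Rcor1 call being lost without L224. Gad2 rose from 8.09 ± 4.76 to 76.4 ± 6.86 CPM, alongside the interneuron genes described below.

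RNA-binding proteins and chromatin factors changed in both directions. Of 38 splicing and RNA-binding genes 18 rose, 15 fell and 5 did not pass (median log2 0.06), and of 43 chromatin genes 20 rose, 19 fell and 4 did not pass (-0.047). Members of 1 family often went different ways. Rbfox1 rose from 7.79, 10.7 and 7.67 to 156.8, 158 and 144 CPM and Rbfox2 from 397 ± 56.8 to 1185 ± 25.1, unlike Rbfox3. Elavl3 rose from 426 ± 43.5 to 1265 ± 71.8 while Elavl2 and Elavl4 fell, and Celf4 rose 9.0-fold. Ptbp1, the splicing repressor of non-neuronal cells, fell from 449, 408 and 389 to 179, 149 and 149 CPM and its neuronal relative Ptbp2 did not pass (324 ± 15.7 and 290.3 ± 13.5). Ptbp2 was called lower under 7 of the other settings, among them library totals (log2 -0.38), the replicate block (-0.16), DP and Neuron alone (-0.17) and the fit without L223 (-0.18). The stem cell translational regulators Msi1 and Msi2 fell 2.05- and 2.03-fold.

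Several subunits of the BAF remodelling complex that are exchanged when progenitors become neurons showed the same kind of change, but not all. Actl6a, the progenitor subunit, stood at 104, 97.6 and 96.8 CPM in DP and 57.1, 52.1 and 56.6 in Neuron, and Actl6b, the neuronal one, at 6.71, 9.26 and 10.1 and 144, 156.03 and 153. Of the per-length CPM of the pair, Actl6b held 1.28% ± 0.95 (SD) in PP, 11.1% ± 2.4 in DP and 79.5% ± 1.4 in Neuron. Dpf1 held 27.9% ± 1.2 in DP and 82.9% ± 0.87 in Neuron against Dpf2, and Ss18l1 (CREST) 42.2% ± 3.0 and 80.5% ± 0.48 against Ss18. Phf10, another of the exchanged subunits, did not pass, but was called lower with library totals (log2 -0.33). Ezh2, the methyltransferase of the Polycomb complex PRC2, fell from 318 ± 3.50 to 193 ± 9.52 CPM, its partners Eed and Suz12 1.93- and 2.17-fold, and Ezh1 rose from 22.2 ± 3.71 to 45.5 ± 3.33. Chd5, a neuronal remodeller of the NuRD family, rose 7.86-fold and the histone deacetylases Hdac5 and Hdac11 1.79- and 1.71-fold while Hdac1 fell 2.01-fold. Of 17 DNA methylation genes 8 fell and 2 rose. Mbd2, a reader of DNA methylation, was among those that rose, a call lost without L395 and with library totals (log2 0.10).

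In pairs of related metabolic genes the share of 1 member was higher in Neuron than in DP. Hk1, the hexokinase of neurons, held 19.5% ± 1.7 of the per-length CPM of Hk2 and Hk1 in DP and 77.2% ± 1.4 in Neuron; Hk2 stood at 103, 86.1 and 79.9 and 31.3, 30.1 and 25.6 CPM. The neuronal enolase Eno2 held 7.20% ± 2.0 and 52.0% ± 2.5 beside Eno1, and the neuronal glucose transporter Slc2a3 8.16% ± 0.056 and 41.2% ± 2.9 beside Slc2a1. In PP these 3 shares were 18.1% ± 1.9, 5.26% ± 1.1 and 6.63% ± 0.54. Eef1a2, the elongation factor that replaces Eef1a1 in mature neurons, rose 98.6-fold and still held only 3.29% ± 0.33 of the pair in Neuron. Of 23 glycolysis and lactate genes 12 fell, 6 rose and 5 did not pass (median log2 -0.34). Ldha, lactate dehydrogenase A, fell from 243 ± 30.5 to 160.4 ± 11.6 CPM, and Pfkp, a phosphofructokinase, rose 23.8-fold from 6.83 ± 0.767.

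**Figure D5:**
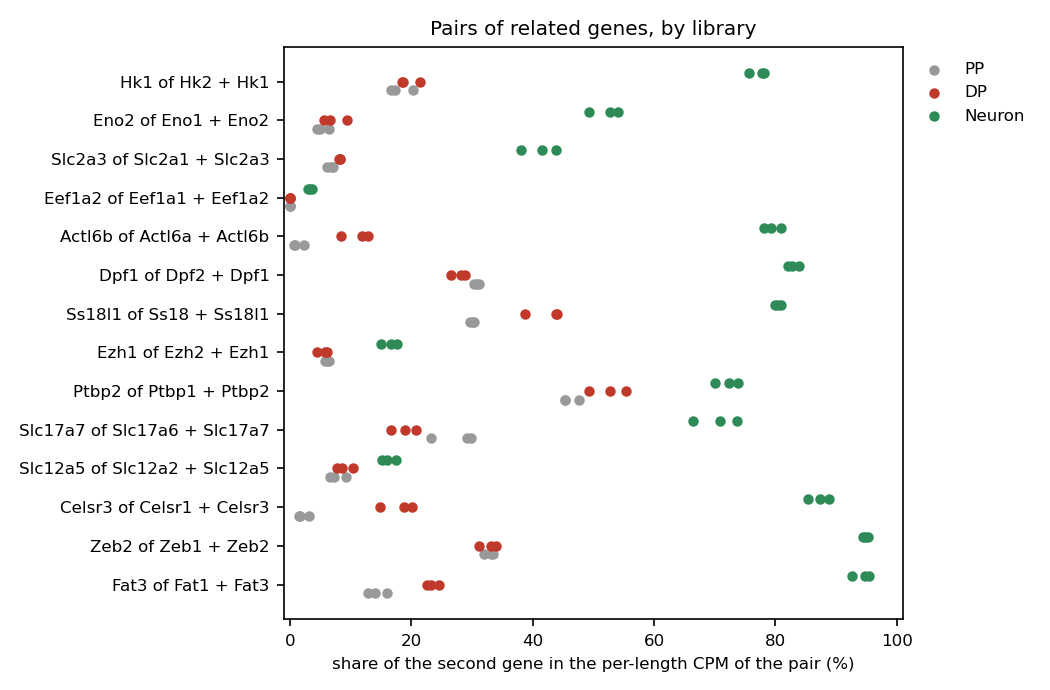
Percent of the summed per-length CPM of a pair that the gene named last holds, per library in PP, DP and Neuron, for 14 pairs of related genes chosen after their values were seen. In each pair every Neuron library lies above every DP library.

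Genes of the respiratory chain, ribosome and cholesterol synthesis differed by small amounts at the median. Of 31 respiratory chain genes 6 rose, 3 fell and 22 did not pass (median log2 0.14); 14 rose when libraries of the same number series were paired as a block, 1 with library totals and 3 without L394. Atp5o, an ATP synthase subunit, rose from 89.8 ± 11.1 to 127 ± 10.9 CPM and Tfam, the mitochondrial DNA factor, fell from 59.8 ± 1.36 to 41.9 ± 1.45. The other 2 falls, Sdha and Cox8a, were lost without L223, L356, L357 or L395. Of 37 genes of ribosomal proteins and elongation 22 fell (14 without L357), 4 rose and 11 did not pass (-0.33); near-identical copies make these counts uncertain. Of 26 cholesterol and lipid genes 12 rose (7 with library totals), 8 fell and 6 did not pass (0.12). Fdft1, squalene synthase, rose from 86.6 ± 5.87 to 173 ± 5.93 CPM, while the regulators and exporters Srebf1 and Abca1 fell 3.18- and 4.12-fold.

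Genes of migration and of attachment moved in both directions. Of 30 migration and delamination genes 17 rose and 11 fell (median log2 0.48), and of 33 matrix and apical junction genes 10 rose and 18 fell (-0.88). The reelin pathway rose at the adaptor Dab1, from 102, 69.3 and 76.2 to 415, 439 and 396 CPM, and at the receptor Vldlr, from 21.9 ± 1.33 to 134 ± 6.49, while its other receptor Lrp8 fell from 837 ± 96.2 to 613 ± 52.5. Zeb1, a repressor of neuronal differentiation in progenitors, fell from 192, 201 and 181 to 27.0, 22.8 and 24.7 CPM and Zeb2 rose from 192, 209 and 166.7 to 925, 937 and 894. Zeb2 held 32.8% ± 1.4 of the per-length CPM of the pair in DP and 94.8% ± 0.46 in Neuron. Scrt1, a Snail family repressor, rose 8.21-fold and Cdh13 68.1-fold, and Nde1, a dynein regulator of mitosis, fell 16.2-fold against a rise of its relative Ndel1 from 39.0 ± 3.11 to 54.9 ± 1.88 CPM. The apical polarity genes Crb2 and Pard3 fell 37.3- and 3.38-fold and the kinase Prkcz, whose short form acts in neurons, rose 10.4-fold.

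Large cadherins also moved in opposite directions. Celsr1 fell (values above) and Celsr3 rose from 333.7 ± 54.5 to 1035 ± 65.1 CPM. Celsr3 held 2.07% ± 0.87 of the per-length CPM of the pair in PP, 17.9% ± 2.7 in DP and 87.2% ± 1.7 in Neuron. Fat1 fell from 512 ± 99.9 to 34.7 ± 11.01 CPM while Fat3 and Fat4 rose 3.60- and 3.34-fold. The matrix proteoglycans Ncan and Vcan rose from 673 ± 51.5 to 1190.0 ± 122 and from 318 ± 27.1 to 836 ± 29.6 CPM, and the matrix protein Tnc fell 76.3-fold.

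Apoptosis genes leaned higher, 10 of 18, with 5 lower and a median log2 of 0.36. The BH3-only gene Bbc3 rose 3.99-fold and the survival factor Bcl2l1 from 90.4 ± 2.30 to 149 ± 5.32 CPM, while Trp53 fell from 156.4 ± 9.37 to 90.9 ± 4.14. Immediate early genes, which respond within minutes to stimulation, went both ways: of 19 with the heat shock genes, 5 rose and 7 fell. Fos fell from 68.5, 49.1 and 36.6 to 16.3, 16.4 and 17.4 CPM and Jun from 339.8 ± 41.7 to 139.9 ± 16.8, and Junb rose from 5.37 ± 2.46 to 23.4 ± 1.85.

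The list of 23 named long non-coding RNAs also holds Peg3, a protein-coding gene, which rose. Of the 23 members 8 rose and 8 fell (5 fell without L394, and 5 without L224). These counts are near the shares of all features, 33.1% higher and 34.2% lower. The imprinted RNAs of the Dlk1-Dio3 region rose together: Meg3 stood at 112, 117 and 152 CPM in DP and 691, 792 and 778 in Neuron, Rian rose 3.14-fold and Mirg 4.06-fold. Snhg11 rose 25.4-fold, Rmst, a partner of Sox2, fell 5.19-fold, and Malat1 did not pass (501 ± 95.2 and 587 ± 18.1 CPM). Malat1 was called higher without L394 (log2 0.39) and with the replicate block (0.25). Of 484 unannotated transcripts 174 rose and 164 fell. XLOC_049573 (chr9:32866247-32901458) had 0 counts in DP and 173 in Neuron, at least 60-fold higher, and XLOC_014870 (chr14:61104066-61125428) had 0 counts in Neuron and 74 in DP, at least 23.8-fold lower; both bounds use a floor of 3 counts over the group at 0.

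Several of the genes that rose most are markers of neurons that reach the lateral cortex from elsewhere, and the green fraction held more of their RNA. Of 25 interneuron and ventral genes tested, 17 rose and 6 fell (median log2 2.98). Summed over the list, levels were 492 to 664 CPM in DP and 1179 to 1199 in Neuron. Gad1, the GABA-making enzyme, stood at 0.659, 1.03 and 1.21 CPM in DP and 68.6, 68.6 and 69.6 in Neuron, Slc32a1, the vesicular GABA transporter, at 1.37, 0.988 and 0.603 and 44.8, 43.6 and 35.6, and Dlx5 at 6.10, 4.51 and 1.88 and 36.1, 28.7 and 25.4. The Neuron libraries differed little among themselves in these genes and lay above all DP libraries. Dlx1 and Dlx2, expressed earlier in the same lineage, did not pass: Dlx1 held 83.5, 51.0 and 14.5 CPM in DP and 101.2, 86.7 and 80.2 in Neuron (adjusted p = 0.275, edgeR), with DP L223 within the Neuron range. With libraries of the same number series paired as a replicate block, both were called higher (Dlx1 log2 1.22, adjusted p = 0.0334; Dlx2 log2 1.25, adjusted p = 0.0278, edgeR). Prox1 and Sp8 fell 9.38- and 2.95-fold. Nkx2-1 and Lhx8 of this list did not reach the count filter.

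Cajal-Retzius genes behaved likewise. Of 15, 11 rose and 2 fell (median log2 1.47), and the summed level was 287 to 338 CPM in DP and 1045 to 1184 in Neuron. Reln, the secreted signal of these cells and of some interneurons, stood at 28.9, 37.9 and 29.0 CPM in DP and 849.9, 845 and 742 in Neuron, and Calb2 at 0.212, 0.232 and 0.0965 and 7.09, 10.95 and 8.47. Ebf2 and Zic1 fell, Zic1 from 137 ± 9.24 to 52.6 ± 10.4 CPM. Of 16 striatal genes 8 rose and 2 fell (1 without L395), with a summed level of 545 to 604 CPM in DP and 509 to 718 in Neuron. Ppp1r1b rose from 1.95 ± 0.0655 to 55.5 ± 6.00 CPM. The rise of Isl1 rested on 1 library: its Neuron libraries held 11.6, 1.83 and 0.258 CPM, the call was lost without L224 (log2 1.17), and also without L223 or L394. The part of these cells in the receptor, channel and GABA results above was not tested.

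Markers of non-neural cells were low in both fractions. No endothelial, pericyte, microglial, red blood cell or meningeal gene rose, apart from 2 pericyte genes when L223 was left out and 1 microglial gene when L224 was. Summed levels were 39.2 to 40.9 CPM in DP and 28.0 to 33.2 in Neuron for endothelium, 6.80 to 9.18 and 1.76 to 3.90 for microglia, and 5.45 to 12.4 and 1.22 to 2.40 for meningeal fibroblasts. For pericytes they were 154.9 to 252 and 6.65 to 7.13, most of it Notch3, and the defining gene Pdgfrb stood at 6.65 ± 0.854 and 0.580 ± 0.194 CPM. Of 13 endothelial genes 5 fell (3 without L394, L224 or L357, and 8 without L395), of 13 microglial genes 9 (2 with a filter of at least 1 CPM in at least 3 libraries) and of 8 pericyte genes 4. Red blood cell genes summed to 19.1 to 126 CPM in DP and 14.2 to 16.6 in Neuron; 7 of 13 fell, 2 without L223, 1 without L395 and 4 without L224 or L357. Of 12 choroid plexus and hem genes 11 fell and Rspo3 rose, with sums of 124 to 178 and 65.7 to 76.0 CPM. Oligodendrocyte precursor genes summed to 47.7 to 49.5 and 37.6 to 38.5; of 7, 4 fell and 1 rose, and of 7 meningeal genes 3 fell. In PP, red blood cell genes summed to 8374 to 15356 CPM, so the 2 fractions compared here held far less globin RNA than the cells without red signal.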

How the data were processed

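Sorted cells of lateral cortex from C57BL/6 embryos at embryonic day 14.5 were sequenced as poly-A RNA with random primers. The authors deposited whole-number counts per gene and run; per the file headers the tables hold 37620 genes of Ensembl release 67 and 630 unannotated transcripts. Tools that the submitters' processing notes name without a role are featureCounts 1.4.4, TopHat2 2.0.10, Cufflinks 2.1.1, DESeq, DESeq2 1.4.5, Bowtie2 2.2.1, BWA 0.5.9-r16, bcl2fastq 1.8.2 and bedtools 2.16.2, and the build is mm9. The deposited comparison table also holds a normalised signal per library: for annotated genes all 159606 values, and for unannotated transcripts 3778 of 3780, equalled the added counts of both runs divided by 1 size factor per library within 0.06. Its log2 fold change, the score columns (standard error and test statistic) and the p-value columns are the authors' own.

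Here the counts of both runs of a library were added as 1 replicate. Columns were tied to groups by name, since the labels do not give the library numbers. Different libraries of a group differed by more than sampling noise (chi-square over its degrees of freedom was 8.48 to 31.27), and so did the single-read and paired-end runs of 1 library (25.64 to 37.17). edgeR 4.0.16 in R 4.3.3 was run with TMM scaling (factors 1.02 to 1.04 in DP and 0.867 to 0.907 in Neuron), filterByExpr and a quasi-likelihood test fitted to the 9 libraries with no term but the group, and adjustment by Benjamini-Hochberg at 0.05; the script was tested on simulated data. CPM use the scaled totals. Of several identifiers with 1 symbol, that with the most counts was used. The alternatives were DESeq2 1.42.0 as a test and as size factors, library totals, other filters, DP and Neuron alone, single runs, left-out libraries and a block on number series.

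The comparison, its members and the 43 lists with 1068 genes were chosen with earlier results of these data known. Genes named are the reporters and markers, preset list members, the 2 strongest rises and falls per list, members against the direction of their list, the 30 highest and lowest log2 differences that reached 10 CPM in a group without overlap, and the 10 largest rises and falls in CPM. Mcm6, Orc1, Hells, Cdc20 and Kif11 were chosen after their values were seen. Some genes that the rule names are not reported here; they stay in the fits and the list counts. Near-identical genes (globins, ribosomal proteins) are uncertain. Promoter windows came from RefSeq on GRCm38.p6. They were matched by Ensembl identifier, or by symbol where the identifier gave no window. Of 18627 features 10775 had a window, 8570 with 1 and 2205 with several. No coordinates were moved between builds.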

Additional observations from a re-analysis of the deposited data

How the results depend on the processing

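The counts of 6161 higher and 6378 lower features stayed within 1.5 times under every setting run. They ranged over 4695 to 6708 higher and 5419 to 8470 lower. Library totals gave 4695 and 8470, DESeq2's size factors in edgeR 6388 and 6117, its Wald test 6335 and 6065, no filter 6384 and 6661, a filter of at least 1 CPM in at least 3 libraries 5539 and 5607, DP and Neuron alone 6045 and 6251, single-read runs 5410 and 5419, and paired-end runs 5857 and 6003. Leaving out 1 library gave 5739 to 6006 higher and 5838 to 6225 lower. The replicate numbers of the labels are not on the count columns. Libraries of the same number series deviated together from their group means (correlations 0.358, 0.271 and 0.528, against -0.106 to -0.339 for other pairs), a hint from the data and not the design. Deviations within a group cancel out, so the other pairs are no independent contrast to those of the same number series. A replicate block on that series gave 6708 higher and 6912 lower; it ended no call of a named gene and added 9. With library totals, 2 named genes changed sign and were called lower: Slc12a2 at -0.22 and Tet3 at -0.19 on the log2 scale. Changes of sign without a call in either fit were not counted. That scaling shifts all features down, by its construction. It ended 18 calls of named genes, among them Gsk3b and Ptch1. Calls of Isl1, Slc17a6, Tppp3, Jag1, Bdnf and the globins ended without single libraries; the cause was not tested. Counts as low as those of Cacng3 in DP set the depth limit, and values of 0 allow 0.0221 CPM in DP and 0.0229 in Neuron.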
